A study of Mus musculus with 74 samples.

Results

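The libraries described here are the spleen regulatory T cells (Treg) of tumor-bearing mice at 12 and at 3 months of age. They were chosen by name from the deposited count table, as the columns labelled Treg, spleen and either age, which gave 8 of the 74 libraries, 4 at each age. All groups are C57BL/6J mice from the Jackson Laboratory that carried subcutaneous MC38 tumors, a transplantable mouse colon carcinoma line, to day 10 of growth, so that the 3-month animals are tumor bearers too and no tumor-free spleen is part of the comparison. Each library came from 1000 cells, sorted in 2 passes as CD45+TCRb+CD4+CD25+ and turned into cDNA by Smart-seq2, a full-length protocol for low input. The gate selects the interleukin 2 receptor alpha chain and not Foxp3, so any CD4 T cell that displays CD25 could enter it. The labels do not say whether the libraries of a group came from separate animals, and p-values measure the spread between these libraries only. Beside them stand spleen conventional CD4 T cells (CD25- gate, 4 libraries at 12 months and 3 at 3 months), spleen CD8 T cells (4 and 4) and tumor Treg (4 and 4).

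Regulatory T cells restrain other lymphocytes through the transcription factor Foxp3, which sustains high CD25, CTLA-4 and other suppressive molecules. In the spleen they range from resting cells, which carry homing molecules of naive T cells, to effector cells, which have seen antigen and carry more inhibitory and chemokine receptors. With age the effector fraction of T cells is generally known to grow at the expense of the naive one. In bulk samples a change in the share of such cells and a change in transcripts per cell cannot be told apart.

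Total counts ran from 3688816 to 5253498 per library at 12 months and from 3533544 to 4790546 at 3 months, and ribosomal protein genes took 2.72% ± 0.27 and 2.89% ± 0.31 of them (SD, n = 4 each). The first principal component, with 21.1% of the variance, did not separate the ages: replicate 4 at 3 months (24.5) lay among the 12-month libraries (-5.89 to 35.2). That library also held 249 CPM (counts per 1000000 counts of its library) summed over 15 macrophage and monocyte markers. The other 3-month libraries held 41.2 to 43.3 CPM and the 12-month libraries 45.03 to 97.6 CPM. Of these markers Ccr2 alone reached 169 CPM at 3 months and 74.1 CPM at 12 months. None of the others exceeded 13.5 CPM in any library. Replicate 2 at 12 months held the most plasma cell marker counts, 3290 CPM against 1099 to 1765 in the other 12-month libraries and 916 to 1713 at 3 months. Of that sum the immunoglobulin gene Ighm alone held 914 to 1610 CPM at 12 months and 767 to 1510 CPM at 3 months. Another, Ighg2b, reached 1370 CPM at 12 months and 0.209 CPM at 3 months, and the marker Jchain 17.3 and 0.566 CPM. No pair of replicates was identical.

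The labelled cell type was checked on the genes of the sort. Foxp3 stood at 1003, 963, 1035 and 889 CPM in 12-month replicates 1 to 4 and at 1116, 1194, 1086 and 920 CPM in the 3-month ones. In conventional CD4 libraries Foxp3 lay between 21.2 and 79.9 CPM, and in CD8 libraries at most at 2.26 CPM. Il2ra, the sorted CD25 chain, was at 606 to 727 CPM in 12-month and 640 to 897 CPM in 3-month libraries, Cd4 at 490 to 579 and 548 to 590 CPM, while Cd8a did not exceed 2.71 CPM. The Treg label holds at both ages, and the ages overlapped for Foxp3, Il2ra and Cd4.

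The threshold used throughout was an adjusted p under 0.05 (edgeR quasi-likelihood test with Benjamini-Hochberg adjustment over the 12261 genes that passed a filter on low counts). At 12 months 6 genes rose, which is 0.0489% of the genes tested, and 0 fell. An unadjusted p under 0.05 was reached by 653 genes (5.33%), 369 higher and 284 lower. DESeq2 called 25 genes higher (0.204%) and 1 lower (0.00816%), among them all 6. The 6 genes encode the interleukin 1 decoy receptor Il1r2, the membrane peptidase Ecel1, the secreted matrix-associated protein Ccdc80, the apolipoprotein L family member Apol10b, the inhibitory receptor Lag3, and Sostdc1, a secreted antagonist of BMP and Wnt signals.

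**Figure D1:**
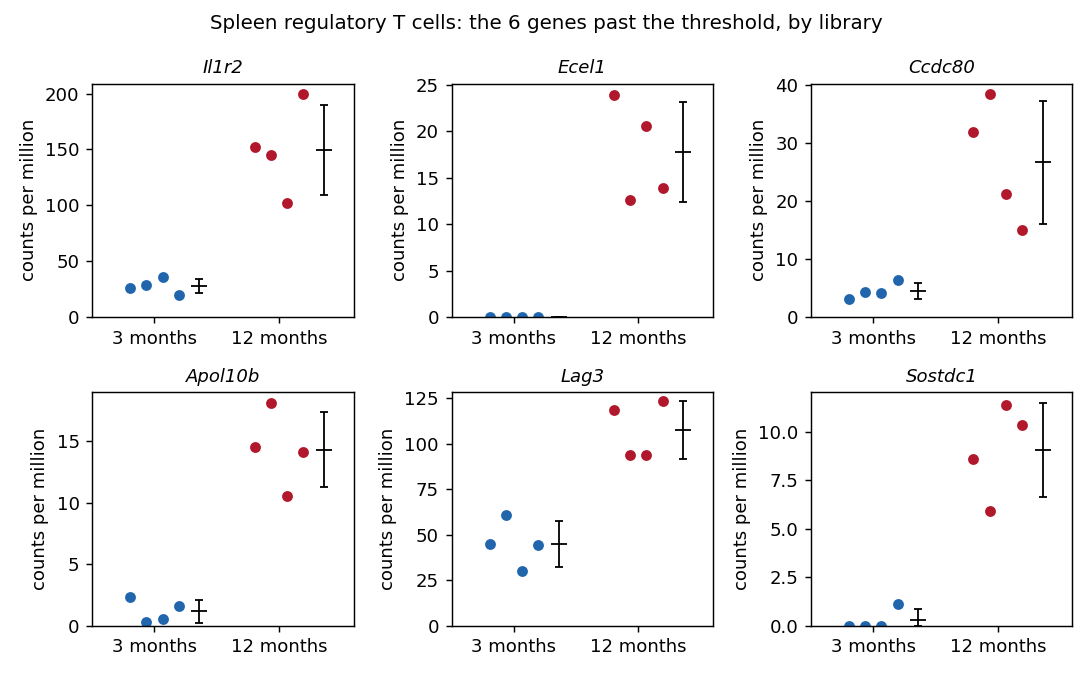
CPM (vertical axes, linear from 0) of the 6 genes past the threshold in the 4 spleen Treg libraries at 3 months (blue) and the 4 at 12 months (red), replicates 1 to 4 from left to right. Black marks give the mean and 1 SD, cut at 0; in each panel every red point lies above every blue one, and Ecel1 is at 0 in all 3-month libraries.

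Promoters of these genes are shown because the 6 genes moved the same way. A match to a motif in them is a description of letters, not a site of any factor. RefSeq (GRCm38.p6) held a promoter entry for 3 of the 6, Il1r2, Ecel1 and Apol10b. Each was searched on both strands, over 250 bases before the start, for 6 motifs, and capitals mark a match.
Il1r2 promoter, chr1:40085852-40085984, plus strand: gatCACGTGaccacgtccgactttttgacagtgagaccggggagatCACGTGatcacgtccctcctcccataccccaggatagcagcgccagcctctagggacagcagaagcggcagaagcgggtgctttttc
Ecel1 promoter, chr1:87156522-87156606, minus strand: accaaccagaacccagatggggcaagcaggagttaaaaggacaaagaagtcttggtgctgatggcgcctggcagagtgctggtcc
Apol10b promoter, chr15:77596126-77596375, minus strand: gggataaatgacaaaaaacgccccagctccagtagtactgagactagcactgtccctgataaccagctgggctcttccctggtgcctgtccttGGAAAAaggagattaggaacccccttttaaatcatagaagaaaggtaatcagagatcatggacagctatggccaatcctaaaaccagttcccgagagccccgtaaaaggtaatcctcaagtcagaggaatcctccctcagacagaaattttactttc
Only stretches outside annotated exons are printed. The RefSeq start used for Il1r2 lies inside the annotated span of the gene (chr1:40074079-40125231), so its stretch is not upstream of the whole gene. The Il1r2 stretch holds the E-box CACGTG (a palindrome) at 238 and 195 bases before the RefSeq start; 6.04% of 32536 promoters of that length hold it. In Apol10b the NFAT motif TTTTCC matched on the other strand at 157 bases before the start, a motif found in 20.4% of promoters. Neither the AP-1 motif TGANTCA (6.73% of promoters), the RUNX motif TGTGGTT (4.41%), the forkhead motif TGTTTAC (3.17%) nor the GATA motif AGATAA (9.97%) matched in these 3 promoters.

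Il1r2 binds interleukin 1 without passing on its signal. Its gene spans chr1:40074079-40125231 on the plus strand (GENCODE M21, mm10), where it overlaps the antisense gene Gm16894, whose reads could not be told apart if strand was not used in counting, and Gm37347, a gene model on the same strand. Il1r2 stood at 152, 145, 102 and 199.97 CPM in 12-month replicates 1 to 4 and at 26.3, 28.6, 36.0 and 20.03 CPM at 3 months. The highest 12-month library was replicate 4, which at 3 months was the lowest, and the ages did not overlap. The log2 fold change was 2.42 (SE 0.22, 5.36-fold, edgeR adjusted p = 0.000138). It passed the threshold in 15 of 15 alternative analyses, with log2 values from 2.27 to 2.57.

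Ecel1 encodes an endopeptidase of the neprilysin family known mainly from neurons, and lies at chr1:87147655-87156521 on the minus strand, overlapping no other annotated gene. Its 12-month libraries held 23.9, 12.6, 20.6 and 13.9 CPM, 322 reads in all, and the 3-month libraries held 0 reads. Set against 3 counts over the 3-month group (0.181 CPM), Ecel1 was at least 98-fold higher at 12 months (edgeR adjusted p = 0.000138). The call held in 15 of 15 alternatives. Across the 66 libraries of the 18 groups other than 12-month spleen Treg and 12-month spleen conventional CD4 T cells, Ecel1 had a read in 14 and did not exceed 1.22 CPM. The 12-month conventional CD4 libraries held 3.99, 11.03, 9.08 and 3.92 CPM, all below the lowest Treg library of that age.

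Ccdc80 encodes a secreted protein of the extracellular matrix (chr16:45093402-45128077, plus strand). It stood at 31.9, 38.5, 21.1 and 15.0 CPM at 12 months and at 3.13, 4.25, 4.17 and 6.30 CPM at 3 months. Replicates 1 and 2 were the highest, and the ages did not overlap. The log2 fold change was 2.56 (SE 0.35, edgeR adjusted p = 0.00711). Without 12-month replicate 1, without 12-month replicate 2, or in a fit that also held tumor Treg, Ccdc80 missed the threshold, with adjusted p up to 0.416 over the 15 alternatives.

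Apol10b belongs to a mouse family of related apolipoprotein L genes (chr15:77583819-77596125, minus strand), and how reads shared with its relatives were counted is not given in the sources used here. It held 14.5, 18.1, 10.6 and 14.1 CPM at 12 months and 2.30, 0.283, 0.521 and 1.58 CPM at 3 months. All 12-month libraries lay well above all 3-month ones, of which replicate 2 was the lowest. The log2 fold change was 3.51 (SE 0.48, edgeR adjusted p = 0.00711). It missed the threshold without 12-month replicate 1 or without replicate 2, with adjusted p up to 0.0561.

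Lag3 is an inhibitory receptor that binds MHC class II and is carried by effector Treg and chronically stimulated T cells (chr6:124904361-124911705, minus strand). Lag3 stood at 119, 93.8, 93.8 and 124 CPM at 12 months and at 44.7, 61.1, 30.0 and 44.1 CPM at 3 months. The ages did not overlap. The log2 fold change was 1.24 (SE 0.19, 2.36-fold, edgeR adjusted p = 0.0275). The call passed in 7 of 15 alternatives, always in the same direction (log2 1.09 to 1.43), and was lost on leaving out 6 of the 8 libraries in turn, the exceptions being 12-month replicate 3 and 3-month replicate 2.

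Sostdc1 is named through the list of follicular helper genes, since its level lies under the 10 CPM asked of the other 5 (chr12:36314139-36318452, plus strand). Its 12-month libraries held 8.60, 5.90, 11.4 and 10.4 CPM, and at 3 months replicates 1 to 3 held 0 and replicate 4 held 1.13 CPM (5 reads). Every 12-month library was above every 3-month one. The log2 fold change was 4.78 (SE 0.76, edgeR adjusted p = 0.0296). It passed in 6 of 15 alternatives, and among those that leave out a library only without 3-month replicate 4.

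**Figure D2:**
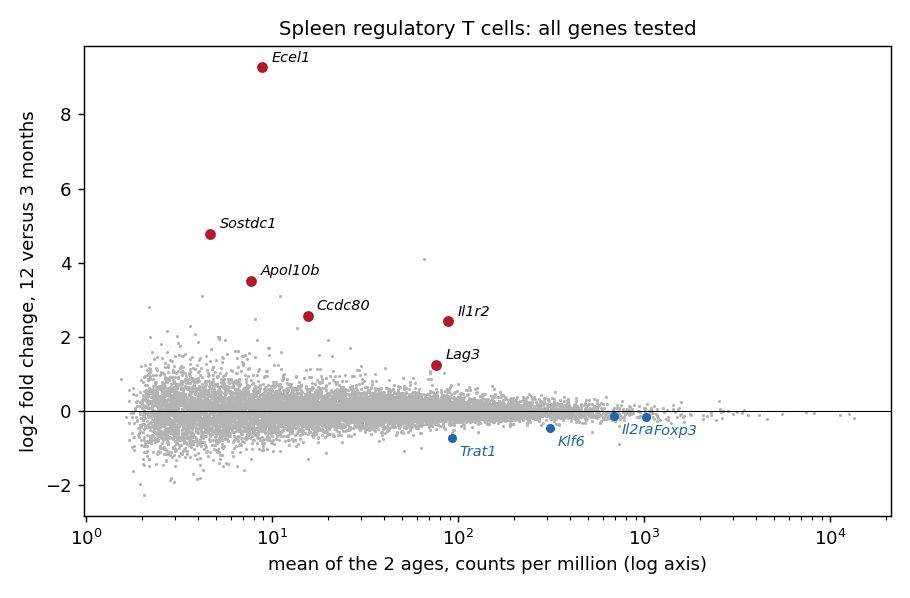
Log2 fold change of 12 over 3 months (vertical axis) against the mean level of both ages in CPM (horizontal log axis) for the 12261 genes tested in spleen Treg, 1 point per gene. Red points are the 6 genes past the threshold, all above 0, and blue points name 4 genes that were not past it: Trat1, Klf6, Il2ra and Foxp3.

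Close to the threshold stood 3 genes, chosen after their values were seen. Eea1, an early endosome tether, had 117, 85.7, 70.2 and 116 CPM at 12 months and 44.3, 40.2, 38.3 and 57.9 CPM at 3 months (log2 1.09, SE 0.19, edgeR adjusted p = 0.0532). Muc16, a large membrane mucin, had 16.2, 9.52, 17.6 and 35.5 against 1.88, 5.09, 1.04 and 1.13 CPM (log2 3.11, SE 0.52, edgeR adjusted p = 0.0532). For Fam160a1 the values were 42.0, 36.0, 18.4 and 30.7 against 11.1, 3.68, 7.30 and 11.03 CPM (log2 1.91, SE 0.33, edgeR adjusted p = 0.0560). None of the 3 overlapped between the ages, a pattern that 240 genes showed upward (1.96% of those tested) and 177 downward (1.44%).

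No gene passed downward. The 5 smallest p-values on that side, among genes of at least 10 CPM whose libraries did not overlap, were those of Trat1, Klf6, Zkscan6, Usp18 and Ms4a4b. Trat1, an adaptor that stabilises the T cell receptor complex, stood at 75.1, 72.1, 61.8 and 71.1 CPM at 12 months and at 101, 142, 107 and 110 CPM at 3 months. Its log2 difference was -0.73 (SE 0.14, edgeR adjusted p = 0.137), and 2 of 15 alternatives called it lower, DESeq2 (adjusted p = 0.0028) and edgeR with no filter on low counts (adjusted p = 0.0084). Klf6, a zinc finger factor of the immediate early response, held 285, 306, 244 and 229 against 376, 359, 369 and 337 CPM (log2 -0.45, SE 0.11, edgeR adjusted p = 0.448). The other 3 had log2 differences of -0.66 (Zkscan6), -0.60 (Usp18, which removes ISG15 from proteins) and -0.39 (Ms4a4b, a tetraspan protein of T cells), with edgeR adjusted p of 0.448, 0.536 and 0.536.

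In all, 41 gene lists were read against these values, of which 5 held a called gene and 36 held none. The lists overlap, and the calls in them are Il1r2, Lag3 and Sostdc1 only. Members and lists were chosen with earlier results of these data known, so the list shares given here and below are descriptions, not tests. Over all genes tested the median log2 fold change was -0.01 and 49% were positive. In the Treg identity list (28 of 28 members tested) 0 members passed the threshold and the median was 0.03. Ikzf2, the Helios factor of thymus-derived Treg, differed by -0.02 (SE 0.10) and the interleukin 2 receptor beta chain Il2rb by -0.02 (SE 0.10), signs that turned with the filter or with single libraries. Foxp3 differed by -0.17 (SE 0.10, edgeR adjusted p = 0.967). Summed over the list, 12-month libraries held 11206 to 11602 CPM and 3-month libraries 10855 to 11631 CPM, with full overlap.

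The effector Treg list, with genes of antigen-experienced Treg, had 34 members tested. Of these 2 rose (Il1r2 and Lag3), against 0.0489% of all genes, and 0 fell. The median of the list was 0.21, and 0.07 to 0.51 over the 15 alternatives. Its summed level was 2547, 2489, 1874 and 2479 CPM at 12 months and 1791, 2032, 1554 and 2841 CPM at 3 months. The ages overlapped, and the highest sum was that of 3-month replicate 4. At an unadjusted p under 0.05 stood 5 members upward (14.7%) and 2 downward (5.88%), against 3.01% and 2.32% of all genes. Tigit, an inhibitory receptor, was at 93.1, 102, 55.6 and 118 CPM against 42.0, 56.9, 26.8 and 75.2 CPM (log2 0.87, SE 0.30, edgeR adjusted p = 0.854), with overlap between the ages. Ccr8, a chemokine receptor of effector Treg, stood at 41.1, 53.1, 45.001 and 60.9 against 22.8, 33.4, 28.1 and 44.1 CPM (log2 0.63, SE 0.21, edgeR adjusted p = 0.854). Of the 18 inhibitory receptors tested 1 rose (Lag3), against 0.0489% of all genes. Pdcd1, which encodes PD-1, had 116, 136, 126 and 159 against 91.2, 109, 62.3 and 97.5 CPM, without overlap. Its log2 difference was 0.56 (SE 0.16), with an edgeR adjusted p of 0.616. The abundant Tnfrsf1b, the second TNF receptor, differed by 0.28 (SE 0.16).

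The naive and resting list had 21 members tested, 0 past the threshold, and 21 of 21 log2 differences were below 0, with a median of -0.17 that was negative in 15 of 15 alternatives. The differences were small. Foxp1, a quiescence factor, differed by -0.08 (SE 0.09). Ly6c1 had 26.6, 38.3, 33.9 and 26.3 against 49.7, 39.9, 45.6 and 48.4 CPM (log2 -0.57, SE 0.18, edgeR adjusted p = 0.781), and Klf2, which drives homing receptors, 19.0, 30.5, 22.0 and 32.0 against 23.8, 42.2, 46.9 and 35.3 CPM (log2 -0.53, SE 0.24, edgeR adjusted p = 0.929). The summed level of the list was 6258, 6660, 6989 and 6188 CPM at 12 months and 7039, 7631, 7251 and 6251 CPM at 3 months. Replicate 4 of the 3-month group, the one with the highest summed macrophage and monocyte markers, lay with the 12-month libraries. Its part in the values was not tested.

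The lineage transcription factors had 36 members tested, 0 past the threshold, a median of 0.21 (positive in 15 of 15 alternatives), and 8 members upward at an unadjusted p under 0.05 (22.2% of the list, against 3.01% of all genes) with 0 downward. Their summed level was 6084, 6159, 5852 and 5795 CPM at 12 months and 5487, 5340, 5305 and 5335 CPM at 3 months, without overlap. Among its members Stat3, a signal transducer of several cytokine receptors, averaged 599 against 471 CPM and Hif1a, the hypoxia-inducible factor, 280 against 202 CPM. Bhlhe40, a repressor tied to effector T cells, stood at 137, 92.3, 74.8 and 146 against 46.5, 72.2, 48.7 and 54.5 CPM (log2 1.01, SE 0.21, edgeR adjusted p = 0.214), and DESeq2 called it (adjusted p = 0.0055). Ahr, the aryl hydrocarbon receptor, and Tbx21, the T-bet factor of type 1 responses, had log2 differences of 1.47 (SE 0.43) and 1.07 (SE 0.38) with edgeR adjusted p of 0.625 and 0.854, and their libraries overlapped.

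Genes induced by type I interferon lay mostly below 0. Of 32 tested, 0 passed the threshold, the median was -0.26 and it was negative in 15 of 15 alternatives. At an unadjusted p under 0.05 stood 9 members downward (28.1%, against 2.32% of all genes) and 1 upward. Ifit1, which binds viral RNA, held 33.0, 76.7, 27.4 and 29.8 CPM at 12 months and 74.1, 59.1, 130 and 73.6 CPM at 3 months (log2 -1.01, SE 0.36, edgeR adjusted p = 0.863). Ifit3 held 10.0, 20.4, 7.32 and 10.6 against 24.0, 13.3, 49.0 and 20.9 CPM (log2 -1.15, SE 0.40, edgeR adjusted p = 0.854). For both, 12-month replicate 2 stood above the other libraries of its age and above 3-month replicate 2, so the ages overlapped. The summed level of the list overlapped as well, with 3462 CPM in that library against 2524 to 2705 CPM in the other 12-month libraries and 2648 to 3188 CPM at 3 months. The genes induced by interferon gamma (27 tested, 0 past the threshold) had a median of 0.09.

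Among the pathway lists the cell cycle had 36 members tested, 0 past the threshold, 28 positive (49% of all genes were) and a median of 0.24. Its 3 members higher at an unadjusted p under 0.05 (8.33%, against 3.01% of all genes) were the kinase Cdk6 (log2 0.37) and the replication helicase subunits Mcm6 (0.26) and Mcm4 (0.24), named after their values were seen. Oxidative phosphorylation had 23 tested, 0 past the threshold, 21 negative and a median of -0.12, and ribosomal proteins 80 tested, 0 past the threshold, 76 negative and a median of -0.11. For ribosomal proteins the median was positive in 1 of 15 alternatives. In the apoptosis list Casp4, an inflammatory caspase, stood at 103, 85.5, 65.6 and 103 against 38.4, 56.6, 46.1 and 52.2 CPM, without overlap (log2 0.87, SE 0.18, edgeR adjusted p = 0.142; DESeq2 adjusted p = 0.004).

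**Figure D3:**
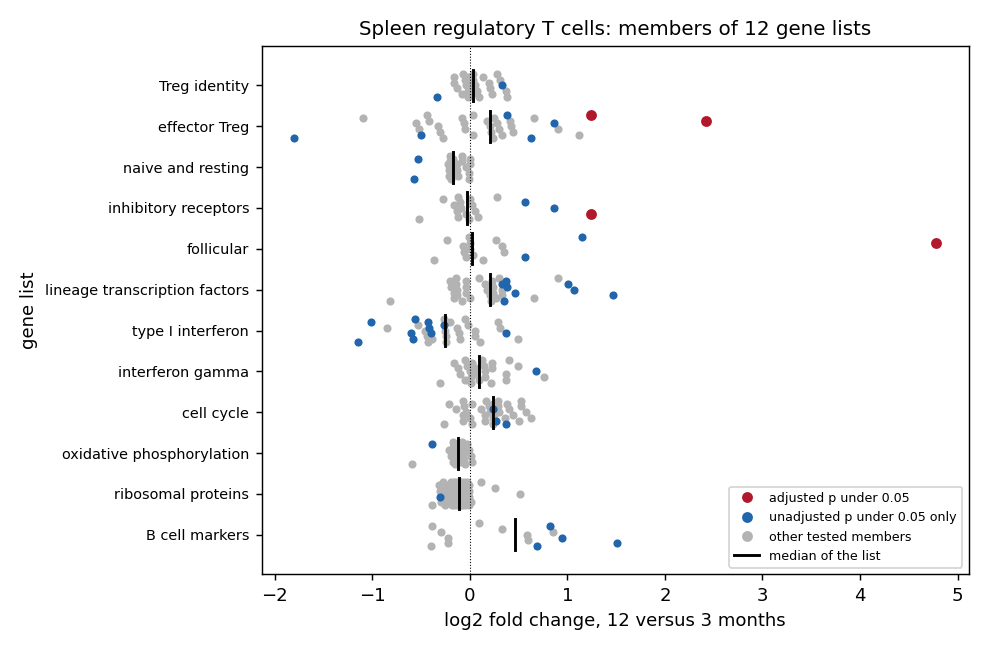
Log2 fold change of 12 over 3 months (horizontal axis) for the tested members of 12 gene lists (vertical axis), with the median of each list as a black bar. Red points passed the adjusted threshold (Il1r2, Lag3 and Sostdc1, some in more than 1 list), blue points had only an unadjusted p under 0.05, and the naive and resting list lies wholly below 0.

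Markers of other cells were measured in the same libraries. The B cell list (15 markers) summed to 303 to 355 CPM at 12 months and 183 to 313 CPM at 3 months; 4 of 14 tested members were higher at an unadjusted p under 0.05 (28.6%, against 3.01%) and 0 passed the threshold. Those 4 were Cd74, H2-Aa, H2-Eb1 and Fcer2a, while the B cell factor Pax5 did not exceed 2.71 CPM at either age. Cd74, the invariant chain of MHC class II, stood at 121, 125, 94.9 and 113 against 75.4, 62.8, 75.0 and 64.2 CPM (log2 0.69, SE 0.14, edgeR adjusted p = 0.139), and H2-Aa at 26.8, 35.0, 46.4 and 33.8 against 25.3, 17.3, 18.0 and 11.9 CPM (log2 0.95, SE 0.25, edgeR adjusted p = 0.536). Summed markers of CD8 T cells (13.9 to 20.9 against 11.5 to 25.5 CPM), NK cells (23.04 to 34.8 against 20.9 to 28.1 CPM), neutrophils (3.07 to 7.86 against 2.35 to 11.5 CPM) and red cells (6.24 to 13.7 against 8.86 to 14.6 CPM) overlapped between the ages, and the defining markers Ly6g, Hba-a2 and Prg2 were at 0 in all 8 libraries. Igkc, an immunoglobulin light chain, held 455 CPM in 12-month replicate 2 and 3.83 to 22.7 CPM in the other 7 libraries. The part of these cells in the age differences was not tested.

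The same genes were next read in the other T cell groups, which differed from spleen Treg in mitochondrial share. At 12 and 3 months it averaged 1.77% and 1.86% of counts in spleen Treg and 1.17% and 1.04% in tumor Treg. In spleen conventional CD4 cells it averaged 8.59% and 7.31%, and in spleen CD8 cells 9.15% and 8.65%. Its part in the levels was not tested. At 12 months Ecel1, Ccdc80 and Apol10b were higher in every spleen Treg library than in any spleen conventional CD4 library, whose highest values were 11.03, 8.82 and 3.63 CPM. Sostdc1 was the reverse, with 96.4 to 208 CPM in 12-month conventional CD4 libraries, 0.305 to 12.0 CPM in 3-month ones and 0 to 0.626 CPM in CD8 libraries of both ages. Il1r2 was also higher at 12 months in spleen conventional CD4 libraries, at 51.4 to 172 CPM against 0.61 to 13.9 CPM at 3 months, without overlap. Ecel1 (3.92 to 11.03 against 0 to 0.305 CPM) and Apol10b (1.47 to 3.63 against 0 to 0.948 CPM) did not overlap between the ages there either. Ccdc80 did overlap there (0 to 8.82 against 0 to 1.52 CPM). In CD8 libraries Il1r2 did not exceed 4.84 CPM. The 12-month tumor Treg held 403 ± 71.4 CPM of Il1r2 and the 3-month ones 284 ± 79.1 CPM (SD, n = 4 each), above spleen Treg at both ages without overlap. They held Lag3 at 1357 ± 703 and 1235 ± 527 CPM (SD, n = 4 each), while Ccdc80 averaged 1.26 and 1.87 CPM and Sostdc1 at most 1.22 CPM in any tumor Treg library.

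**Figure D4:**
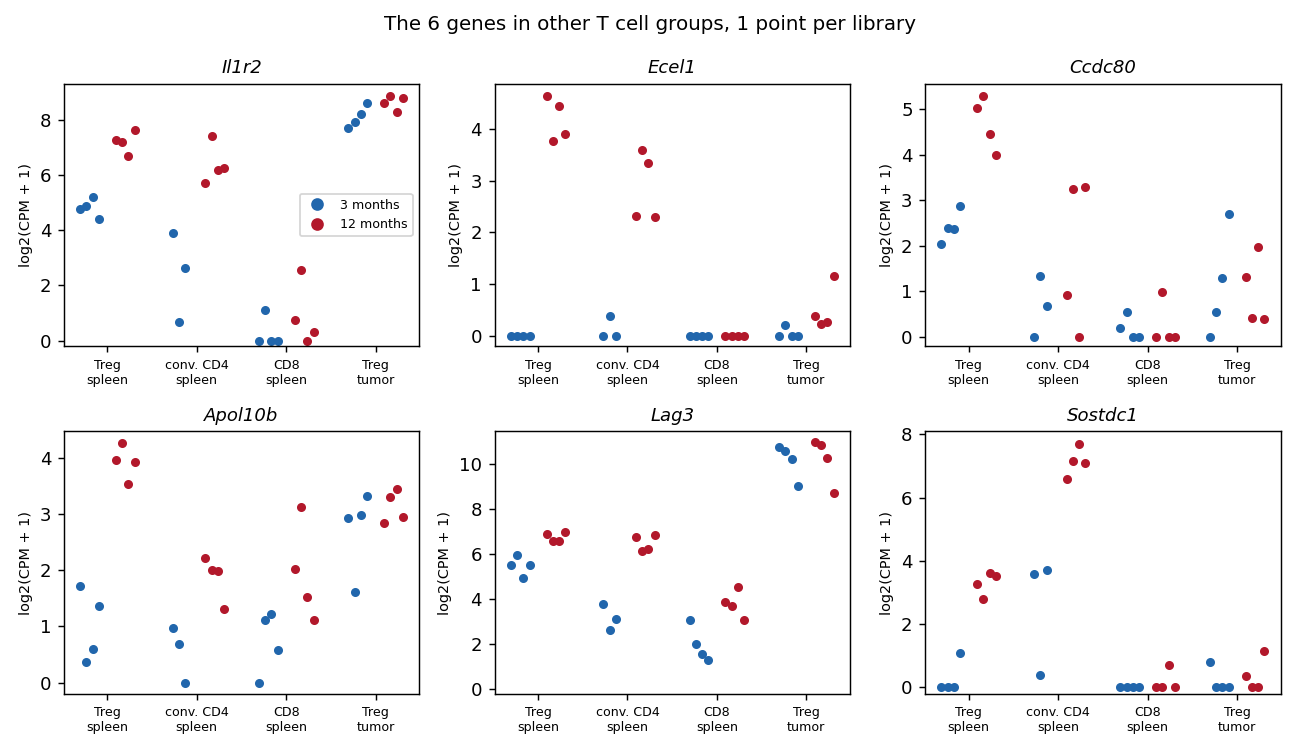
Level of the 6 genes as log2(CPM + 1) (vertical axes) in spleen Treg, spleen conventional CD4, spleen CD8 and tumor Treg, 1 point per library, 3 months blue and 12 months red. Ecel1 lies near 0 outside the 12-month spleen CD4 groups, Sostdc1 is highest in 12-month conventional CD4 cells, and Lag3 and Il1r2 are highest in tumor Treg at both ages.

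Whether an age difference of spleen Treg differs from that of another group was tested by an interaction term in edgeR; the 3 tests share the 8 spleen Treg libraries. Against tumor Treg 0 of 13345 genes passed (521, or 3.9%, at an unadjusted p under 0.05; DESeq2 called 5). Il1r2 came near, with an age difference larger in spleen than in tumor by 1.93 (SE 0.31, edgeR adjusted p = 0.0628), and passed in 6 of 22 alternatives, with adjusted p from 1.51e-12 to 0.194. For Tlr12, a toll-like receptor chosen after its values were seen, the tumor libraries at 12 months held 0 reads (edgeR adjusted p = 0.074). For Ecel1, Ccdc80, Apol10b, Lag3 and Sostdc1 the spleen-minus-tumor term had edgeR adjusted p between 0.487 and 0.999. Since a p that misses the threshold does not show equal effects, these age differences are not shown to be specific to spleen.

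Against CD8 T cells 1 of 13257 genes passed (0.00754%; 738, or 5.57%, at an unadjusted p under 0.05), the uncharacterised transcript A930011G23Rik, named after its values were seen. It stood at 7.57, 5.14, 5.69 and 7.06 CPM in 12-month Treg and 10.4, 7.08, 8.34 and 9.23 CPM in 3-month Treg, but at 11.7, 31.0, 15.3 and 20.7 CPM in 12-month CD8 and 2.74, 3.46, 4.61 and 1.47 CPM in 3-month CD8 cells. The CD8 ages did not overlap, whereas the Treg ages did. The term was -3.13 (SE 0.52, edgeR adjusted p = 0.0389), and it passed in 10 of 22 alternatives. Serpina3g, a serine protease inhibitor of activated T cells, had -2.60 (SE 0.44, edgeR adjusted p = 0.064).

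Against conventional CD4 T cells 27 of 13548 genes passed (0.199%; 1658, or 12.2%, at an unadjusted p under 0.05), all with a smaller or more negative age difference in Treg. The 3-month conventional CD4 libraries it uses differed in ribosomal share: 8.70% in replicate 1, 4.55% in replicate 3 and 11.8% in replicate 4, against 3.83% to 4.41% at 12 months. With the ribosomal share as a covariate 0 genes passed (856 at an unadjusted p under 0.05; alternative added after the data were seen). The 27 terms stayed negative in all 23 alternatives, and with the covariate they lay between -7.33 and -0.92, for example -2.38 for Itgb8, -1.51 for Cd83 and -1.05 for Ikzf2. A fit without replicates 1 and 4, also added afterwards, left that group with 1 library, assumed to vary like the others; 0 genes passed there, with terms from -9.38 to -0.85, and the loss of calls says nothing of those 2 libraries. Leaving out single libraries gave 8 genes without replicate 1, 11 without 12-month Treg replicate 3, 16 without 12-month conventional CD4 replicate 2, and 1035 without replicate 3 of the 3-month conventional CD4 group, 606 of them positive. Foxp3 in the CD25- conventional CD4 gate was also higher at 12 months, at 51.7, 74.7, 79.9 and 79.9 CPM against 21.2, 44.8 and 31.5 CPM at 3 months, and its own term was -1.15 (SE 0.26, edgeR adjusted p = 0.0551). The part of these Foxp3 levels in the terms was not tested, and the ribosomal share was examined only through the alternatives above.

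Of the Treg identity list 5 of 28 members were among the 27 genes (0.199% of all genes tested): Cd83, Il2rb, Nt5e, Nrp1 and Ikzf2, all highly expressed by Treg at both ages. Cd83, a membrane protein of activated lymphocytes, stood at 539, 393, 412 and 493 CPM in 12-month Treg and 457, 490, 345 and 364 CPM in 3-month Treg, with overlap. In conventional CD4 cells Cd83 stood at 114, 81.7, 91.6 and 97.8 CPM at 12 months and at 16.4, 30.2 and 11.4 CPM at 3 months, without overlap. The Cd83 term was -2.07 (SE 0.30, edgeR adjusted p = 0.0032), the smallest p of the 27. Il2rb ranged from 898 to 1143 CPM in 12-month Treg and from 929 to 1061 CPM in 3-month Treg, and from 112 to 162 CPM against 39.5 to 67.4 CPM in conventional CD4 cells (term -1.32, SE 0.22, edgeR adjusted p = 0.00545). Nt5e, the CD73 enzyme that makes adenosine, had -1.50 (SE 0.26), Nrp1, a semaphorin receptor of thymus-derived Treg, -2.03 (SE 0.38), and Ikzf2 -1.67 (SE 0.34), with edgeR adjusted p of 0.00753, 0.0225 and 0.031.

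Of the effector Treg list 2 of 34 members passed, Itgb8 and Lag3, against 0.199% of all genes tested. Itgb8, the integrin chain with which Treg activate TGF-beta, held 61.2, 51.0, 42.6 and 50.5 CPM in 12-month Treg and 57.0, 24.3, 36.2 and 32.0 CPM in 3-month Treg, with overlap. In conventional CD4 cells Itgb8 held 34.3, 54.6, 73.4 and 71.8 CPM at 12 months and 2.53, 7.93 and 4.39 CPM at 3 months, which did not overlap. The Itgb8 term was -2.97 (SE 0.45, edgeR adjusted p = 0.0042). Lag3 rose in Treg, as described above, but in conventional CD4 cells it stood at 69.2 to 115 CPM at 12 months against 5.18 to 12.6 CPM at 3 months, and the Lag3 term was -2.02 (SE 0.38, edgeR adjusted p = 0.0165). Outside that list, Bhlhe40 had -2.14 (SE 0.37, edgeR adjusted p = 0.00753), Pdcd1 -1.38 (SE 0.27, edgeR adjusted p = 0.0223), Cxcr5, the follicular homing receptor, -1.79 (SE 0.35, edgeR adjusted p = 0.0225), and Cyfip1, an actin regulator, -1.67 (SE 0.26, edgeR adjusted p = 0.0043). For Il1r2, Ecel1, Ccdc80, Apol10b and Sostdc1 the term against conventional CD4 cells did not pass (edgeR adjusted p 0.487 to 0.986).

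**Figure D5:**
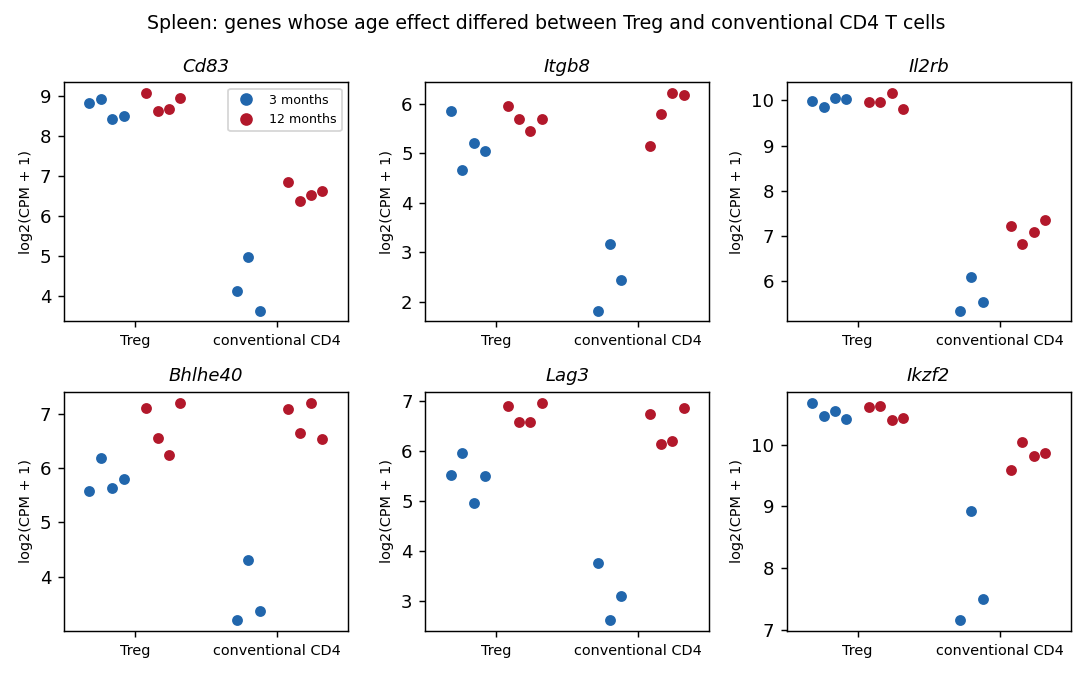
Level as log2(CPM + 1) (vertical axes, not starting at 0) of 6 of the 27 genes in spleen Treg and spleen conventional CD4 T cells, 1 point per library, 3 months blue and 12 months red. In conventional CD4 cells every red point lies above every blue one, whereas in Treg the ages overlap for Cd83, Itgb8, Il2rb and Ikzf2 and not for Lag3 and Bhlhe40.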

How the data were processed

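RNA of sorted spleen T cells was measured by Smart-seq2. The authors deposited a table of raw counts per gene, aligned with STAR 2.5.3 to mm10 and counted with featureCounts per the submitters' processing notes. How strand and multiply matched reads were handled, and with which annotation, is not given in the sources used here. From the 8 spleen Treg columns, genes were kept by filterByExpr (12261 of 49480 symbols), scaled by TMM and tested with edgeR 4.0.16 (R 4.3.3, robust quasi-likelihood, two-sided, Benjamini-Hochberg over all genes, threshold 0.05); the scripts were tested on simulated data. Interaction terms used the same steps on 15 or 16 libraries. CPM is the count per 1000000 counts of the library. DESeq2 1.42.0 was an alternative, beside other scaling, no filter, non-robust shrinkage, replicate blocks, a joint fit and leaving out each library.

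Members and lists were chosen with earlier results of these data known. Genes are named by rule: those past the threshold with libraries that do not overlap and at least 10 CPM (up to 12 per side, else the 5 smallest p-values); from each list up to 4 past the threshold and 2 of the most abundant others; 3 per side of each interaction; the sort genes. The text gives a selection, and says where a gene was chosen after its values were seen; Tigit, Ccr8, Pdcd1, Ly6c1, Klf2, Bhlhe40, Ahr, Tbx21, Ifit1, Ifit3, Casp4, Cd74, H2-Aa, Nrp1, Cxcr5, Serpina3g, Stat3, Hif1a and Igkc were also chosen so.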

Additional observations from a re-analysis of the deposited data

Results flagged for a closer look

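In 102 checks of a group's 4 libraries, 4 had a library far from the others by Dixon's criterion; chance gives about 1 in 20. Ifit1 was at 76.7 CPM in 12-month replicate 2 (27.4 to 33.0 in the others). In the 3-month group replicate 4 held Sostdc1 at 1.13 CPM (0 in the others) and summed macrophage and monocyte markers at 249 CPM (41.2 to 43.3 in the others). Replicate 2 of that group held Trac, the T cell receptor alpha constant gene, at 996 CPM (664 to 687 in the others).

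The age difference of spleen Treg differed from that of conventional CD4 T cells by the interaction test for 27 genes. Beside the values reported for Cd83 (-2.07), Itgb8 (-2.97), Cyfip1 (-1.67), Il2rb (-1.32), Bhlhe40 (-2.14), Nt5e (-1.50), Lag3 (-2.02), Pdcd1 (-1.38), Nrp1 (-2.03), Cxcr5 (-1.79) and Ikzf2 (-1.67), the log2 terms were -1.44 for Tasp1, -1.59 for Wls, -1.49 for Igf1r, -2.56 for Rgs16, -4.80 for Tnc, -2.56 for Abhd4, -1.63 for Tiam1, -1.69 for Tbc1d4 and -1.68 for Ahnak. They were -1.24 for AU020206, -1.99 for Ptger2, -1.36 for Ptpn11, -2.73 for Spry1, -2.39 for Myo3b, -3.24 for Pmaip1 and -1.21 for Syt11. With each library's ribosomal share added to the fit, none of the 27 passed, while all 27 terms stayed negative (-7.33 to -0.92). Against CD8 T cells the term of A930011G23Rik was -3.13.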

How the results depend on the processing

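With 4 libraries a group, counts of calls moved with the analysis, and no cause was tested. In spleen Treg alone 6 genes passed; 56 passed with no filter on low counts (53 higher), 26 with DESeq2, 3 with all 4 Treg groups in one fit, and 2 to 8 without single libraries (2 without 12-month replicate 1 or 2). Ecel1 and Il1r2 passed in all 15 alternatives. With the replicate number as a block 12 genes passed (11 higher), the 6 among them; same-numbered deviations correlated at 0.128, 0.0459, 0.134 and 0.173, so not every pair was over 0.1 and the numbers were not taken to pair libraries. As a hint from the data, each 12-month library correlated best with its own number, and same-numbered tumor Treg libraries correlated at 0.118 to 0.374. Against conventional CD4 cells the 27 became 201 with no filter, 150 with DESeq2, 0 with the ribosomal share as a covariate, 0 without 3-month conventional CD4 replicates 1 and 4 (an arm of 1 library, not comparable with the rest), and 8 to 1035 without single libraries; the replicate block gave 33 and the block within age 22. Against CD8 cells the 1 gene became 45 with no filter, 34 with DESeq2, 2 with non-robust shrinkage, 0 with the replicate block within age and 0 to 3 without single libraries; with the plain replicate block 1 other gene passed. Against tumor Treg the 0 became 13 with no filter, 5 with DESeq2 and 0 to 2 without single libraries, and stayed 0 with the replicate blocks.

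Signs turned for values near 0 that passed no threshold. Without the filter Ikzf2 was 0.00334 and Il2rb 0.0013; with the ribosomal share as a covariate Trac was 0.00532. Without single libraries they ranged from -0.0605 to 0.0392 (Ikzf2), -0.0769 to 0.0481 (Il2rb) and -0.152 to 0.0816 (Trac). The term against conventional CD4 cells ranged from -0.71 to 0.89 for Ccdc80 without single libraries, and for Sostdc1 was -1.44 with the ribosomal covariate and -3.95 without replicates 1 and 4. The term of Il1r2 against CD8 cells was -0.0131 with DESeq2 and -3.11 to 2.05 without single libraries.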

Other observations

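DESeq2, but not edgeR, called 20 further genes in spleen Treg, 19 of them higher at 12 months. Beside Trat1, Eea1, Muc16, Fam160a1, Bhlhe40, Casp4 and Cd74, they include Ece1, a metalloprotease that activates endothelins (log2 0.68, DESeq2 adjusted p = 0.0043), Litaf, a protein of late endosomes (0.90, DESeq2 adjusted p = 0.0028), Tspan3, a tetraspanin (0.72, DESeq2 adjusted p = 0.0013), Shtn1, known from neuronal polarity (3.15, DESeq2 adjusted p = 0.0028), and Twsg1, an extracellular BMP regulator (1.03, DESeq2 adjusted p = 0.018). These were chosen after their values were seen, and their edgeR adjusted p ran from 0.113 to 0.416.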
